A study of Mus musculus with 8 samples.

Results

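The genes of the interleukin 6 family receptors, of the transcription factor STAT3 and of the SOCS feedback inhibitors were followed in mouse hearts after digoxin, a plant-derived cardiac glycoside that inhibits the Na/K-ATPase. The set held 10 genes chosen by name, Lif, Il6ra, Il6st, Lifr, Osmr, Stat3, Socs1, Socs2, Socs3 and Cish, of 22180 genes measured. Each gene was read from the probe sets annotated to its symbol alone, averaged where there were several. All 10 genes were measured, by 13 probe sets of the 23521 with 1 symbol, and no low-value filter was applied. Digoxin hearts came from 5 mice given 1 mg/kg by intraperitoneal injection at ZT5, and vehicle hearts from 3 mice given the solvent of ethanol, propylene glycol, citric acid and sodium phosphate at the same time. All were male wild-type mice aged 8 to 10 weeks, of the strain labelled C57BL6JRj and called C57BL6/J in the growth protocol, kept on chow and a 12 h light and 12 h dark cycle, and all hearts were taken at ZT9, where ZT0 is lights-on. The design text counts 4 vehicle hearts, and the fourth was not analysed here. One array is counted as 1 animal. Total RNA of the heart, with no chamber named in the labels, was read on Affymetrix arrays of the Mouse Gene 2.0 ST type. The deposited log2 values are centred probe set by probe set, so only differences between arrays can be read from them, not how strongly a gene was expressed.

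Cytokines of this family signal through Il6st, the gene of the shared subunit gp130. Interleukin 6 first binds its own receptor, encoded by Il6ra, while the LIF receptor and the oncostatin M receptor, encoded by Lifr and Osmr, each form a signalling pair with gp130. The bound receptor activates Janus kinases, these phosphorylate STAT3, and STAT3 then induces genes that include its own inhibitor Socs3. In the heart the pathway is known for cardiomyocyte survival and hypertrophic growth under stress. Socs1, Socs2 and Cish encode related inhibitors, and Socs2 and Cish are classic targets of STAT5 downstream of growth hormone.

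None of the 10 genes passed the test between digoxin and vehicle hearts, and the shared receptor gene Il6st and the inhibitor gene Cish came nearest, both with lower values after digoxin. At a threshold of 0.05 for the adjusted p in limma (two-sided, Benjamini-Hochberg over all genes tested) 0 of 10 passed, while among all genes tested 1.36% passed, 0.947% as rises and 0.415% as falls. At an unadjusted p under 0.05 there were 2 of 10, Il6st and Cish, against 12.3% of all genes. The same 2 genes had digoxin arrays that did not overlap the vehicle arrays, against 8.16% of all genes in either direction and 3.76% with digoxin below. The mean was lower in digoxin hearts for 8 of the 10 genes, against 55.6% of all genes. The median log2 change of the 10 was -0.095, against -0.011 over all genes, and it was -0.13 without vehicle replicate 3 and -0.052 without vehicle replicate 2. The 95% intervals, which are not adjusted for the number of genes, lay between 0.626 and 1.59 times the vehicle level for all 10. The array numbers in the labels put all vehicle hearts before all digoxin hearts, so an effect of that order and one of digoxin cannot be told apart. In whole heart RNA, fewer cells of a type and less RNA per cell cannot be told apart.

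**Figure D1:**
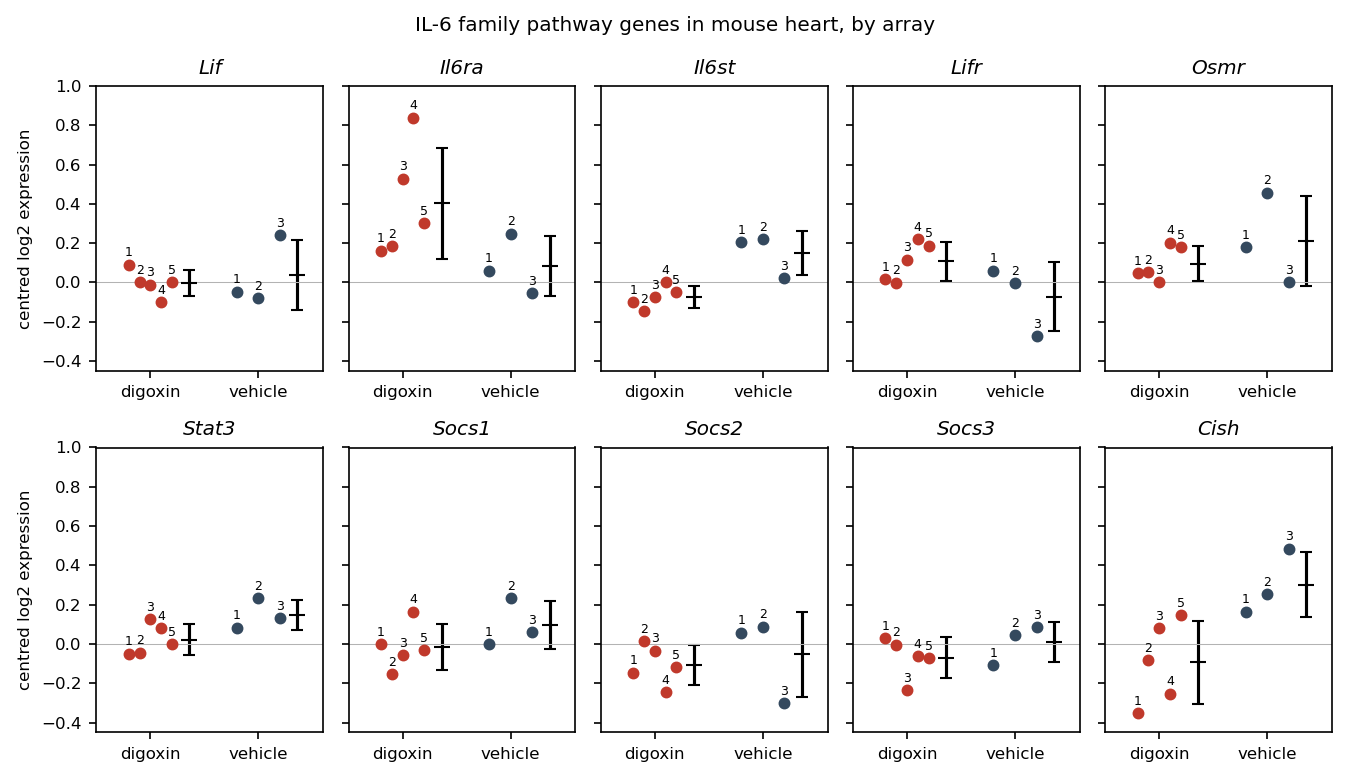
Centred log2 expression of the 10 genes on each array, with digoxin in red and vehicle in dark blue, the replicate number above each point, and the mean ± SD as a black bar (n = 5 digoxin, n = 3 vehicle). The groups do not overlap in Il6st and Cish and overlap in the other 8 genes.

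**Figure D2:**
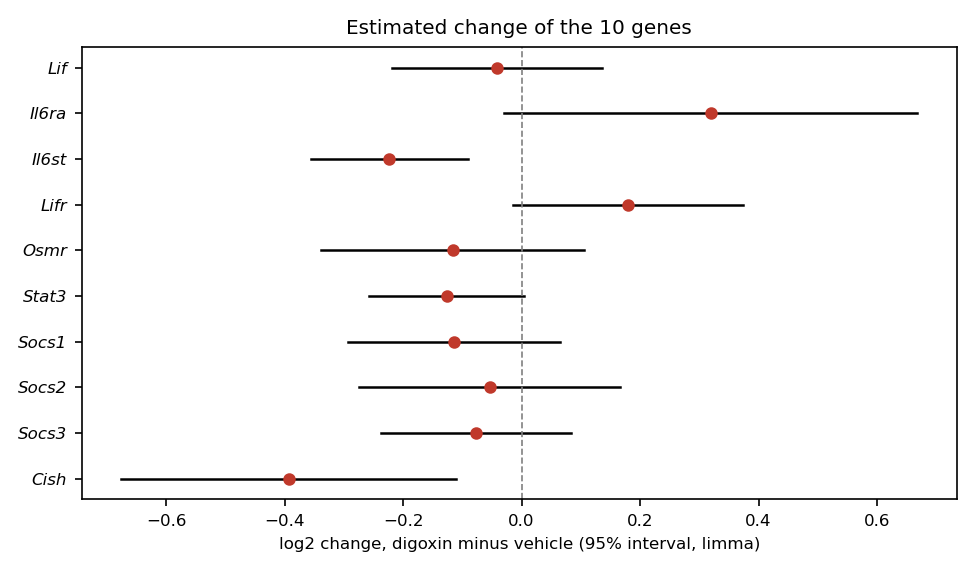
Log2 change of each gene, digoxin minus vehicle, as red points with 95% intervals from limma. The intervals of Il6st (-0.36 to -0.090) and Cish (-0.68 to -0.11) lie below 0, and those of the other 8 genes include 0.

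Among the receptors, the shared subunit gene Il6st (chr13:112464070-112506860, build GRCm38.p6) came closest to the threshold. Its centred log2 values were -0.10, -0.15, -0.074, 0 and -0.050 in digoxin replicates 1 to 5, and 0.21, 0.22 and 0.020 in vehicle replicates 1 to 3. All 5 digoxin arrays lay below all 3 vehicle arrays, but the gap between the groups was 0.020, because vehicle replicate 3 sat next to the digoxin arrays. The means were -0.074 ± 0.055 (SD, n = 5) in digoxin and 0.15 ± 0.11 (SD, n = 3) in vehicle hearts. The log2 change was -0.22 (SE 0.06), which is 0.857 times the vehicle level with a 95% interval of 0.782 to 0.939, and the adjusted p was 0.138 in limma.

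The call for Il6st turned on vehicle replicate 3, the array with the widest spread of values. Without that array the log2 change was -0.29 (SE 0.05) and Il6st fell, with an adjusted p of 0.0296 in limma, in a fit where 0.852% of all genes fell. Where limma weighted the arrays by their quality, this array had the lowest weight (0.189, against 0.731 to 1.98 for the others). Il6st then stood at -0.29 with an adjusted p of 0.0138, and 1.44% of all genes fell. With vehicle replicate 3 and digoxin replicate 4 both left out it was -0.31 with an adjusted p of 0.0200, and 1.27% of all genes fell. In each of the other fits that left out an array, the log2 change of Il6st stayed negative and the adjusted p was between 0.150 and 0.306.

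**Figure D3:**
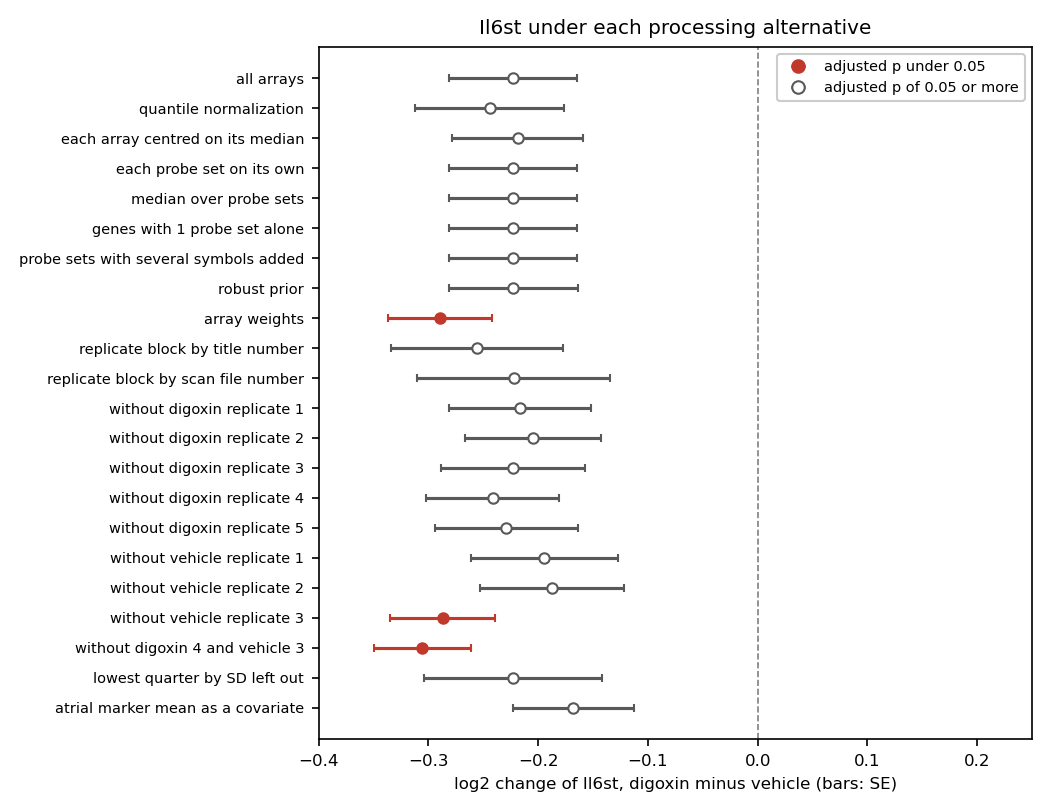
Log2 change of Il6st, digoxin minus vehicle, with its SE under each way of processing the arrays. Filled red points have an adjusted p under 0.05 and open points do not. The 3 filled points, between -0.31 and -0.29, are the fits that leave out or weigh down vehicle replicate 3.

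Markers of other cells of the heart also differed across the arrays. The mean of 7 macrophage markers was 0.026, -0.029, -0.11, 0.16 and 0.0038 in digoxin replicates 1 to 5, against 0.21, 0.20 and -0.12 in vehicle replicates 1 to 3. The mean of 7 endothelial markers lay between -0.12 and -0.017 in digoxin hearts, against 0.046, 0.034 and -0.18 in vehicle hearts. In both lists vehicle replicates 1 and 2 stood above all 5 digoxin arrays, as they did for Il6st, but vehicle replicate 3 stood below them all, where Il6st stood just above. The mean of 7 fibroblast markers lay between -0.12 and 0.091 in digoxin hearts, against 0.14, 0.18 and -0.042 in vehicle hearts. With all arrays no member of these 3 lists passed. Without vehicle replicate 3, the macrophage marker Fcgr1 and the fibroblast marker Tcf21 fell, 1 of 7 in each list, and 0 of 7 endothelial markers fell, with list medians of -0.23, -0.10 and -0.13. The same 2 genes fell with weighted arrays, and with digoxin replicate 4 also left out Cd68, a macrophage marker, and Dkk3, an atrial marker, fell too. The part of these cells in the Il6st values was not tested.

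Il6ra (chr3:89869324-89913196), which encodes the subunit that binds interleukin 6, had the highest estimate of the 10. Its values were 0.16, 0.19, 0.53, 0.84 and 0.30 in digoxin replicates 1 to 5, and 0.060, 0.25 and -0.055 in vehicle replicates 1 to 3. Digoxin replicates 3, 4 and 5 stood above all vehicle arrays, while replicates 1 and 2 lay within the vehicle range. The estimate for Il6ra was 0.32 on the log2 scale (SE 0.15, adjusted p = 0.448 in limma), or 1.25 times the vehicle level with a 95% interval of 0.980 to 1.59. Without digoxin replicate 4 the estimate was 0.21 (adjusted p = 0.496), and without vehicle replicate 3 as well it was 0.14 (adjusted p = 0.655).

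The array with the highest Il6ra value also stood apart in T cell markers. The mean of the 5 measured T cell markers was 1.52 in digoxin replicate 4, between -0.13 and 0.10 in the other digoxin arrays, and between -0.032 and 0.18 in vehicle arrays. Atrial cardiomyocyte, adipocyte and macrophage markers on that array were also the highest of the digoxin group, at 2.02, 0.51 and 0.16. So were pericyte and smooth muscle, B cell and endothelial markers, at 0.13, 0.011 and -0.017. Vehicle replicate 1 stood higher in atrial markers, at 2.56, and vehicle replicates 1 and 2 in macrophage markers, at 0.21 and 0.20. The part of these cells in the Il6ra value was not tested, beyond the estimates without that array and the fit with the atrial mean as a covariate, given below.

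Lifr (chr15:7090610-7197489) encodes the LIF receptor, the signalling partner of gp130 for LIF. It had values of 0.017, -0.00046, 0.12, 0.22 and 0.19 in digoxin replicates 1 to 5, and 0.061, -0.0041 and -0.27 in vehicle replicates 1 to 3. Digoxin replicates 3, 4 and 5 were above all vehicle arrays, and vehicle replicate 3 was far below the rest. Its log2 change was 0.18 (SE 0.09, adjusted p = 0.445 in limma). Without vehicle replicate 3 it was 0.080 (adjusted p = 0.770).

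Osmr (chr15:6813568-6874968), the oncostatin M receptor gene, ranged from 0 to 0.20 in digoxin hearts, against 0.18, 0.46 and 0.0014 in vehicle replicates 1 to 3. The groups overlapped over nearly the whole digoxin range. The log2 change was -0.12 (SE 0.10, adjusted p = 0.673 in limma), and without vehicle replicate 2 it was 0.0057 (adjusted p = 0.984).

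The estimates of the receptor genes thus had different signs, positive for Il6ra and Lifr and negative for Il6st and Osmr. The difference between the centred values of Lifr and Il6st on the same array, looked at after the values were seen, was 0.12, 0.15, 0.19, 0.22 and 0.24 in digoxin replicates 1 to 5, against -0.14, -0.22 and -0.29 in vehicle replicates 1 to 3. Its mean was 0.18 ± 0.05 (SD, n = 5) in digoxin and -0.22 ± 0.07 (SD, n = 3) in vehicle hearts. All 5 digoxin arrays lay above all 3 vehicle arrays. The sign of the difference on an array has no meaning of its own, because the values are centred probe set by probe set. The same difference for Il6ra and Il6st ran from 0.26 to 0.84 in digoxin hearts and from -0.15 to 0.028 in vehicle hearts. These differences between genes were not tested, as the pairs were picked for their opposite estimates, a choice that favours a gap between the groups.

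Other receptors that use gp130 or are close relatives of it gave no calls. Of 4 measured genes in that list, 0 rose and 0 fell, with a median log2 change of -0.089, or -0.034 without vehicle replicate 3. The members of smallest p were Csf3r, the receptor gene of granulocyte colony-stimulating factor, at -0.12 (adjusted p = 0.555) and Il27ra, the interleukin 27 receptor gene, at -0.11 (adjusted p = 0.558), both in limma. Without vehicle replicate 3 they stood at -0.043 and -0.026.

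The ligand gene Lif (chr11:4257568-4272514), which encodes leukemia inhibitory factor, ranged from -0.099 to 0.091 in digoxin hearts, against -0.047, -0.080 and 0.24 in vehicle replicates 1 to 3. Vehicle replicate 3 held the highest value of the 8 arrays and the other arrays overlapped. The log2 change was -0.041 (SE 0.08, adjusted p = 0.869 in limma), and its sign turned without vehicle replicate 3 (0.060, adjusted p = 0.778). Of the 7 other measured ligand genes of the family, 0 passed in limma, and the median was -0.063, or 0.00083 without vehicle replicate 3 and -0.13 without vehicle replicate 2. The ligands of smallest p were Ctf1, the cardiotrophin 1 gene, at -0.29 (SE 0.11, adjusted p = 0.355, and -0.13 without vehicle replicate 3) and Osm, the oncostatin M gene, at 0.11 (SE 0.06, adjusted p = 0.473).

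Stat3 (chr11:100886806-100939594), which encodes the transcription factor that gp130 activates, had values of -0.049, -0.044, 0.12, 0.080 and 0 in digoxin replicates 1 to 5, and 0.084, 0.23 and 0.13 in vehicle replicates 1 to 3. Of the digoxin arrays, 4 lay below the lowest vehicle array and replicate 3 lay within the vehicle range. Stat3 differed by -0.13 on the log2 scale (SE 0.06, adjusted p = 0.427 in limma), or 0.916 times the vehicle level with a 95% interval of 0.837 to 1.003. It stayed negative under all 23 alternatives, between -0.17 and -0.084, and passed the threshold under none of them.

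The kinases and other STAT genes did not pass with all arrays. Of 3 measured Janus kinase genes, which encode the kinases bound to these receptors, 0 passed, with Jak2 at 0.15 (adjusted p = 0.511) and Jak1 at 0.066 (adjusted p = 0.637) in limma. Of 5 other STAT genes 0 passed, with a median of -0.013 that was -0.15 without vehicle replicate 3. Stat2, which acts in interferon signalling, stood at -0.20 (adjusted p = 0.456), and Stat6, the factor downstream of the interleukin 4 receptor, at -0.17 (adjusted p = 0.470). Stat6 fell in the same 3 fits as Il6st. Its adjusted p was 0.0311 without vehicle replicate 3, 0.0380 with weighted arrays and 0.0386 with digoxin replicate 4 and vehicle replicate 3 both left out.

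Among the feedback inhibitors, Cish (chr9:107296659-107302784) had the most negative estimate of the 10 genes. Its product, CIS, is induced by STAT5 and limits signalling from cytokine receptors. The stretch below runs from 250 bases before the RefSeq start to 30 bases after it (chr9:107296409-107296688, GRCm38.p6, plus strand). It is shown because it holds 2 matches to TTCNNNGAA, the core motif that STAT proteins bind, both in capitals. The first starts at the first transcribed base and the second 11 bases further on.
Cish: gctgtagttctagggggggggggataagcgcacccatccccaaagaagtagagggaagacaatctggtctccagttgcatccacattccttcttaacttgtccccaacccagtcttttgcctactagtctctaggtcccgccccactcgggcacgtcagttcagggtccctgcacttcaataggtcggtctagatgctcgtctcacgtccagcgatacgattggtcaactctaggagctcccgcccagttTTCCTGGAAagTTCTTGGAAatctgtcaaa

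The Cish values were -0.35, -0.082, 0.079, -0.25 and 0.15 in digoxin replicates 1 to 5, and 0.16, 0.25 and 0.49 in vehicle replicates 1 to 3. All digoxin arrays lay below all vehicle arrays, with a gap of 0.018 between digoxin replicate 5 and vehicle replicate 1. Cish differed by -0.39 on the log2 scale (SE 0.12, adjusted p = 0.229 in limma), or 0.762 times the vehicle level with a 95% interval of 0.626 to 0.926.

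The 2 probe sets of Cish differed in their estimates. One stood at -0.56 (SE 0.14, adjusted p = 0.128 in limma over single probe sets) and the other at -0.22 (SE 0.16, adjusted p = 0.625). In the second, digoxin replicate 5 had 0.29 and vehicle replicate 2 had -0.11, so its groups overlapped. Over the 23 alternatives, single probe sets included, the estimate stayed between -0.56 and -0.22, and the lowest adjusted p was 0.0924, with the least variable genes left out.

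Socs3 (chr11:117966079-117970336) encodes the inhibitor that binds gp130 and is the best-known STAT3 feedback gene. The 250 bases before the start of its RefSeq promoter entry (chr11:117969367-117969616, GRCm38.p6, minus strand) hold 1 match to TTCNNNGAA, in capitals. The first base of the match lies 154 bases before that start. On the minus strand this start lies inside the gene span given above, so the stretch is within the annotated gene, not upstream of it. The 250 bases before the start of Il6st (chr13:112463820-112464069, plus strand) hold none. Nor do the 250 bases before the start of Cish, whose matches both lie in the transcribed bases shown. With all arrays Il6st was the receptor gene nearest the threshold, without passing it. Both stretches are shown for comparison with Cish.
Socs3: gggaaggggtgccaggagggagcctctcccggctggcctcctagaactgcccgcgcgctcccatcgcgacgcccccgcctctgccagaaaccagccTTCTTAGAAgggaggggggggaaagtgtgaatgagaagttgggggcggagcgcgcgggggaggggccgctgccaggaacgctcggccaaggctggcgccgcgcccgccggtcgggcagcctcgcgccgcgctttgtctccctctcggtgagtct
Il6st: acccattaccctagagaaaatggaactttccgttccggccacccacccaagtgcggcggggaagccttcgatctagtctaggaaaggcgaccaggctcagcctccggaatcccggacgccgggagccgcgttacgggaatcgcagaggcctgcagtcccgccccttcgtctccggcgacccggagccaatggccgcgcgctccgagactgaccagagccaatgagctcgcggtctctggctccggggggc

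Of the 10 genes, 9 had a promoter of 300 bases in the table, 10 promoters in all since Lifr has 2, and Socs2 was not matched. The motif TTCNNNGAA, which reads the same on both strands, was in the promoters of 2 genes, Cish and Socs3. Of the 32851 mouse promoters given by RefSeq, 8.3% held it, and 0.457% held at least 2 matches as Cish did. A match of letters does not show binding.

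The Socs3 values were 0.029, -0.0039, -0.23, -0.063 and -0.071 in digoxin replicates 1 to 5, and -0.11, 0.045 and 0.087 in vehicle replicates 1 to 3. Apart from digoxin replicate 3, the digoxin arrays lay inside the vehicle range. The log2 change was -0.077 (SE 0.07, adjusted p = 0.700 in limma), and the 95% interval ran from 0.849 to 1.06 times the vehicle level. The probe sets stood at -0.12 and -0.030.

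Socs1 (chr16:10783808-10785536), an inhibitor best known from interferon signalling, ranged from -0.15 to 0.16 in digoxin hearts and from 0 to 0.23 in vehicle hearts. Its log2 change was -0.11 (SE 0.08, adjusted p = 0.607 in limma). Socs2 (chr10:95383903-95417321), an inhibitor of growth hormone signalling, ranged from -0.25 to 0.015 in digoxin hearts and from -0.30 to 0.089 in vehicle hearts. Its log2 change was -0.054 (SE 0.10, adjusted p = 0.860 in limma). Vehicle replicate 3 held the lowest Socs2 value, and 1 of the 2 probe sets carried this, with a vehicle SD of 0.45 against 0.026 for the other.

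Regulators beyond the 10 genes included a call. The list of other negative regulators of JAK and STAT signalling held the remaining SOCS genes, the PIAS genes, phosphatases and an adaptor. Of its 13 genes, 1 rose and 0 fell, against 0.947% and 0.415% of all genes. The median was 0.012, or -0.046 without vehicle replicate 3 and 0.052 without vehicle replicate 2. The gene that rose was Ptpn11, the gene of the phosphatase SHP2, which binds gp130 and both passes on and restrains its signals. Its values lay between 0.21 and 0.33 in digoxin hearts, against -0.18 to -0.027 in vehicle hearts. Ptpn11 rose by 0.37 on the log2 scale (SE 0.05, adjusted p = 0.0099 in limma). Of 8 measured genes of the MAPK and PI3K arms of the receptor, 1 rose, against 0.947% of all genes. It was Pik3r1, a regulatory subunit gene of PI3K. The median of that list was 0.035, or -0.049 without vehicle replicate 3. Pik3r1 stood between 0.66 and 0.82 in digoxin hearts, against -0.0035 to 0.057 in vehicle hearts, a log2 change of 0.73 (SE 0.05, adjusted p = 0.00040 in limma).

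Reported targets of STAT3 included more calls than the pathway genes themselves, as listed and with no test of that difference. Of 30 measured targets, 7 rose and 0 fell, against 0.947% and 0.415% of all genes, and the list median was 0.11. Without vehicle replicate 3 the median was 0.055, and without digoxin replicate 4 it was 0.034. Bcl2l1, the gene of the survival protein Bcl-xL, had values of 1.26 to 1.32 in digoxin hearts and -0.34 to -0.070 in vehicle hearts, a log2 change of 1.51 (adjusted p = 1.8e-05 in limma). Cebpd and Cebpb, transcription factor genes of the acute phase response, rose by 0.81 (SE 0.06) and 0.64 (SE 0.05), and the kinase gene Pim3 rose by 0.61 (SE 0.05), each with an adjusted p of at most 0.00085 in limma. The other 3 that rose were Mt2 (1.40), Lcn2 (0.90) and Il4ra (0.62), named after their values were seen. The list was put together with earlier results of these data known, so its count is no independent evidence of a direction. Several of these genes, such as Cebpd, Lcn2 and Mt2, are also known targets of the glucocorticoid receptor. Which factor acted on these genes was not tested.

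The other 23 targets did not pass, and 10 of these had a higher and 13 a lower mean in digoxin hearts. The 4 of smallest p among them, named after their values were seen, were the growth regulator gene Myc at 0.41 (adjusted p = 0.0510), the metallothionein gene Mt1 at 0.46 (adjusted p = 0.0535), Lrg1 at 0.45 (adjusted p = 0.0960) and the kinase gene Pim1 at -0.24 (adjusted p = 0.173), all in limma. Of 9 measured genes of the growth hormone and STAT5 axis, 2 rose and 0 fell, against 0.947% and 0.415% of all genes. They were the cell cycle inhibitor gene Cdkn1a (2.24, SE 0.09) and the repressor gene Bcl6 (0.68, SE 0.08, adjusted p = 0.0038 in limma). By mean, 4 of the 9 were higher and 5 lower in digoxin hearts. The list median was -0.030, or 0.052 without vehicle replicate 3. Stat5a stood at -0.013 and Stat5b at 0.020, both named after their values were seen.

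**Figure D4:**
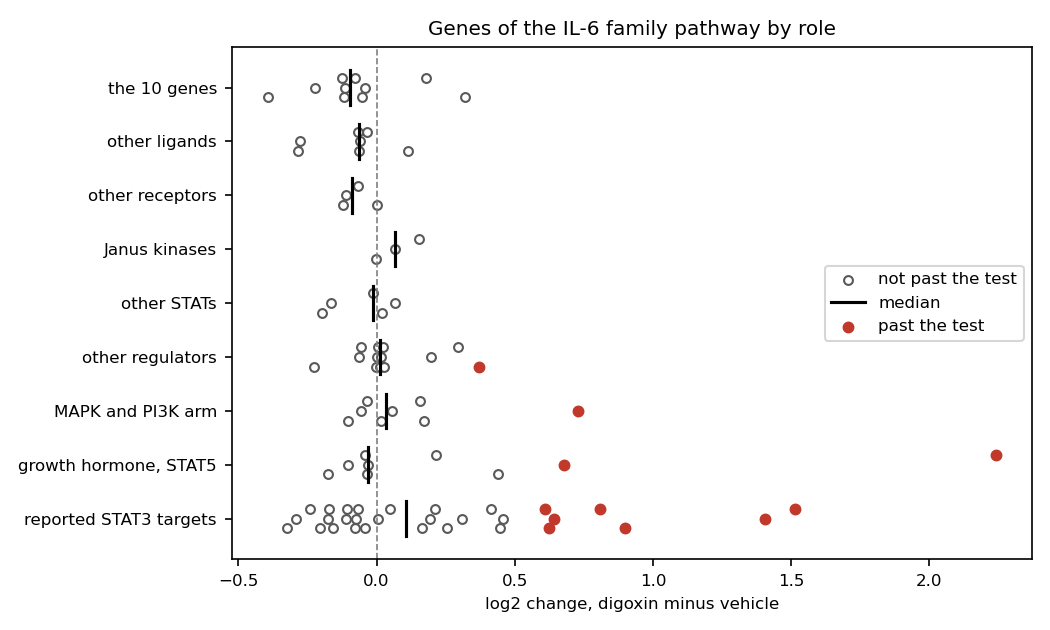
Log2 change, digoxin minus vehicle, of each measured gene by role, with the list median as a black line, filled red points for genes past the test and open points for the rest. The 10 genes described here, the ligands, receptors, kinases and STATs hold no filled point, and the reported STAT3 targets hold 7.

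Vehicle replicate 3 often held an extreme value, in the 10 genes at about the share seen over all genes. It held the highest or the lowest value of the 8 arrays in 6 of the 10 genes, and in 54.5% of all genes. Its interquartile range over probe sets was 0.216, against 0.0792 to 0.115 for the other arrays. The mean of 6 atrial cardiomyocyte markers was 0.44, -0.33, 1.12, 2.02 and -0.51 in digoxin replicates 1 to 5, against 2.56, 1.76 and 0.33 in vehicle replicates 1 to 3. All 6 had a lower mean in digoxin hearts, with a median log2 change of -1.12, and 0 of 6 passed in limma (smallest adjusted p = 0.437). The median was -1.48 without vehicle replicate 3 and -2.02 with digoxin replicate 4 left out as well, where 1 of the 6 fell. With that mean as a covariate, chosen after the data were seen, 0 of the 10 genes passed. Il6st then stood at -0.17 (adjusted p = 0.185), Il6ra at 0.49 (adjusted p = 0.105) and Cish at -0.50 (adjusted p = 0.101). The mean of 7 cardiomyocyte markers ranged from -0.057 to 0.049 in digoxin and from -0.030 to 0.035 in vehicle hearts. Centred values cannot show whether a marker was absent.

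**Figure D5:**
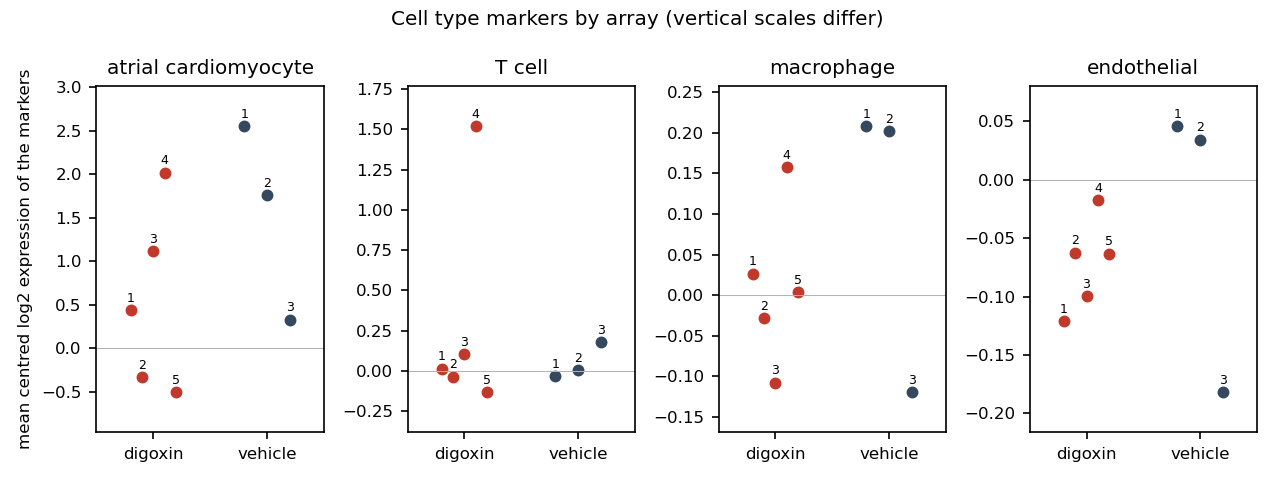
Mean centred log2 expression of atrial cardiomyocyte, T cell, macrophage and endothelial markers on each array, digoxin in red and vehicle in dark blue, with the replicate number above each point and a vertical scale of its own in each panel. Digoxin replicate 4 stands at 1.52 in T cell markers, and vehicle replicate 3 lies below all digoxin arrays in macrophage and endothelial markers.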

How the data were processed

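The deposited values are log2 expression. The authors normalized the arrays by RMA (Robust Multi-array Average) with the Galaxy tool suite GIANT, as the series' design text states, and the submitters' processing notes list limma. No source used here gives the versions, the log base or what the values were centred on, and the base is taken as that of RMA. Of 34351 probe sets, 23521 had 1 symbol in the platform annotation and were averaged by gene, 1814 had several and 9016 had none. The Entrez identifiers of 23328 matched RefSeq (GRCm38.p6), and 0 symbols changed. No probe set with several symbols named any of the 10 genes. Probe sets cannot be ranked by brightness, and no dim-gene filter or signal over background can be had, because values are centred.

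Digoxin was compared with vehicle in limma 3.58.1 (R 4.3.3) over 22180 genes with lmFit and eBayes, without covariates, with 6 residual and 2.75 prior degrees of freedom. The fit was tested on simulated data with 200 changed genes. It found 74% of those with a log2 change of 0.5 and 96% of those with a change of 1. Smaller changes, such as those estimated for the 10 genes, were not simulated. Each simulated gene had the same SD on all arrays, unlike the data, in which vehicle replicate 3 had a wider spread. The labels number the replicates but do not say how separately they were handled, so p-values reflect only how these arrays vary, which may be technical, and precision is limited by their number. No 2 arrays were identical. The 10 genes, 8 pathway lists (91 genes, 79 measured) and 11 marker lists (73 genes) were chosen with earlier results of these data known. The genes named are the 10, in each pathway list up to 4 past the threshold in each direction, and otherwise the 2 of smallest p, with further genes marked in the text as named after their values were seen. Promoters are from RefSeq, matched by symbol. Alternatives covered normalization, probe sets, variance model, array weights, threshold, a replicate block, flat genes and left-out arrays.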

Additional observations from a re-analysis of the deposited data

Results flagged for a closer look

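In the digoxin group of 5, the T cell marker mean of replicate 4 lay far from the others, with a gap to its neighbour of 0.858 of the group's range. Its value was 1.52, against -0.13 to 0.10 in the other 4 digoxin hearts and -0.032 to 0.18 in vehicle hearts. Chosen after the values were seen, Cd3g stood at 3.16 and Cd3e at 2.85 on that array, while Cd2 stood at 0.46. Both encode parts of the T cell receptor complex.

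In the same group Stat6 was lower in replicate 1 than in the rest, with a gap of 0.789 of the range. Its values were -0.12 in that heart, -0.025 in replicate 2 and 0 in replicates 3, 4 and 5. In vehicle hearts they were -0.095 to 0.28. The equal values narrow the range of the digoxin group, which raises that share. Of 37 groups of values looked at in this way 2 stood out, and chance flags about 1 in 20.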

How the results depend on the processing

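Of 230 values of the 10 genes under the alternatives, 220 kept their sign and their side of the threshold. Il6st passed in 3, with array weights (-0.29), without vehicle replicate 3 (-0.29) and without that array and digoxin replicate 4 together (-0.31), so that the count of the 10 genes past the threshold, and of those that fell, was 1 in each. With 1 array left out both counts lay between 0 and 1, and the change of Il6st between -0.29 and -0.19. The sign of Lif turned with quantile normalization (0.0063), array weights (0.052), without vehicle replicate 3 (0.060) and without that array and digoxin replicate 4 (0.084), and its range with 1 array left out was -0.10 to 0.060. That of Socs2 turned without vehicle replicate 1 (0.00066) or 2 (0.016), in a range of -0.18 to 0.016, and that of Osmr without vehicle replicate 2 (0.0057), in a range of -0.22 to 0.0057. The cause of these turns was not tested.

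Over all genes 302 passed (210 rose, 92 fell). The counts were 614 (320 fell) with array weights, 500 (282 fell) without digoxin replicate 4 and vehicle replicate 3, 493 (327 rose, 166 fell) at a threshold of 0.1 and 118 (95 rose, 23 fell) at 0.01. With 1 array left out, between 166 and 374 passed, 123 to 185 rose and 29 to 189 fell.

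The replicate numbers of the titles gave no sign of pairing. Deviations of same-numbered arrays correlated at -0.20, -0.018 and 0.024, and 0 of 6 arrays correlated best with its own number. For the numbers in the scan descriptions the correlations were 0.042, 0.018 and -0.15, and 2 of 6 arrays correlated best with their own number. So few arrays cannot show that there was no pairing. With a replicate block by the title numbers, over 6 arrays, 12 genes passed (11 rose, 1 fell), 0 of the 10 among them. With a replicate block by the numbers in the scan descriptions 7 passed in limma (7 rose, 0 fell), and again 0 of the 10. Under both blocks Ptpn11, Pik3r1, Cebpb, Cebpd, Pim3 and Bcl6 no longer passed, though their changes stayed close to those over all arrays (Ptpn11 0.40 and 0.39, Pik3r1 0.78 and 0.73), while Bcl2l1 and Cdkn1a did. Of the 30 reported STAT3 targets 1 passed under each block. Of 207 list medians 191 moved by less than the spread between arrays.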
